A study of Mus musculus with 6 samples.

Results

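The mucins and the enzymes that build mucin-type O-glycans were examined in salivary glands of mouse embryos that had been cultured for 72 hours, either untreated (controls 1 to 3) or with TGF-β1 (TGF-β1 1 to 3). The set was taken by gene symbol: the genes of the Muc, Galnt, Galntl, Gcnt, B3gnt, C1galt1, St3gal and St6galnac families, which gave 52 of the 19505 genes measured on the arrays. It holds 8 mucins, 19 transferases that start the glycan, 2 genes of the first extension step, 5 branching enzymes, 8 transferases of the B3gnt family and 10 sialyltransferases. Each gene had 1 probe set on the array. The glands came from embryos at a stage given as T13. The sources used here do not give the mouse strain, the kind of gland, the dose of TGF-β1 or the litters, nor whether replicates were separate cultures. The p-values therefore measure the spread between these arrays, which may be technical.

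Mucins are long proteins rich in serine and threonine that carry dense sugar chains and give saliva its slipperiness. Secreted mucins form gels, and membrane mucins line the apical surface of epithelial cells. Their sugar chains are started in the Golgi by the GALNT enzymes, which attach N-acetylgalactosamine (GalNAc) to serine or threonine. The chain is then extended with galactose to core 1 by C1GALT1 and its chaperone C1GALT1C1, branched by GCNT enzymes, lengthened by B3GNT enzymes and often capped with sialic acid by ST3GAL and ST6GALNAC enzymes. In the mouse the mucous cells of the sublingual gland and the acinar cells of the submandibular gland are major users of this machinery.

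Expression is given per gene as a log2 value, and every difference is TGF-β1 minus control in log2 units, with ± its standard error (SE) from 3 arrays a group. The labelled tissue was checked against 10 markers of gland epithelium, whose summed level (log2 of the sum of the linear values) was 14.15 to 14.64 with TGF-β1, 14.003 in control 1, 13.62 in control 2 and 11.66 in control 3. Control 3 was unlike the rest: its Pearson correlations with the other arrays, across all 19505 genes, were 0.550 to 0.601. Controls 1 and 2 correlated at 0.989, and TGF-β1 1 and 2 at 0.990. Across 10 genes that every cell uses, the summed level was 11.63 in control 3 and 15.11 to 15.20 elsewhere. TGF-β1 3 reached a correlation of 0.953 at most. A pair of limma fits was therefore set side by side. The unweighted fit gives each array the same say. The array-weighted fit estimates how far each array scatters: the weights were 0.0338 for control 3, 0.398 for TGF-β1 3 and 1.65 to 4.52 for the other 4 arrays. A 4-array fit, of controls 1 and 2 and TGF-β1 1 and 2 with equal weights, stands beside them. In what follows a gene "rose" or "fell" only where it passed an adjusted p of 0.05 (Benjamini-Hochberg over all 19505 genes) in the array-weighted fit.

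No member passed in the unweighted fit of the 6 arrays by limma, where 0 of 19505 genes passed (a background of 0%). At an unadjusted p under 0.05 there were 4 members, Galnt7, St6galnac2, Galnt12 and Galnt18, all higher with TGF-β1. The background was 389 of 19505 genes (1.99%), and 285 of these 389 were higher with TGF-β1 too. In the array-weighted fit 5 of the 52 members rose (9.62%, against 3.45% of all genes), 2 fell (3.85%, against 3.44% of all genes) and 45 did not pass. The 5 that rose were Galnt12, Galnt7, Galnt3, Galnt18 and St6galnac1, and the 2 that fell were B3gnt5 and Galnt13. No mucin passed. The median difference of the 52 members was -0.00072 in the array-weighted fit (0.0054 over all genes) and -0.22 in the unweighted one (-0.14 over all genes). In whole glands, more cells of a type and more RNA per cell cannot be told apart.

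These calls rest on few arrays. In the 4-array fit 1 of the 52 members passed (1.92%, against 2.59% of all genes), and it was B3gnt5. All 7 called genes had the same sign there as in the array-weighted fit. Those 4 arrays carry most of the weight in the array-weighted fit, so the shared sign is not a separate check. Leaving 1 array out of the array-weighted fit at a time, 4 members passed without control 3 (B3gnt5, Galnt12, Galnt18 and St6galnac1; 544 of 19505 genes in all), 1 without TGF-β1 3 (Galnt18; 375 of 19505 genes in all), and 0 without control 1, control 2, TGF-β1 1 or TGF-β1 2. Those last 4 fits by limma called 0, 0, 8 and 12 genes in all, and 2, 0, 11 and 15 members had an unadjusted p under 0.05 in them. The share of all genes under that level was not counted for these fits, so the member counts have no background.

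**Figure D1:**
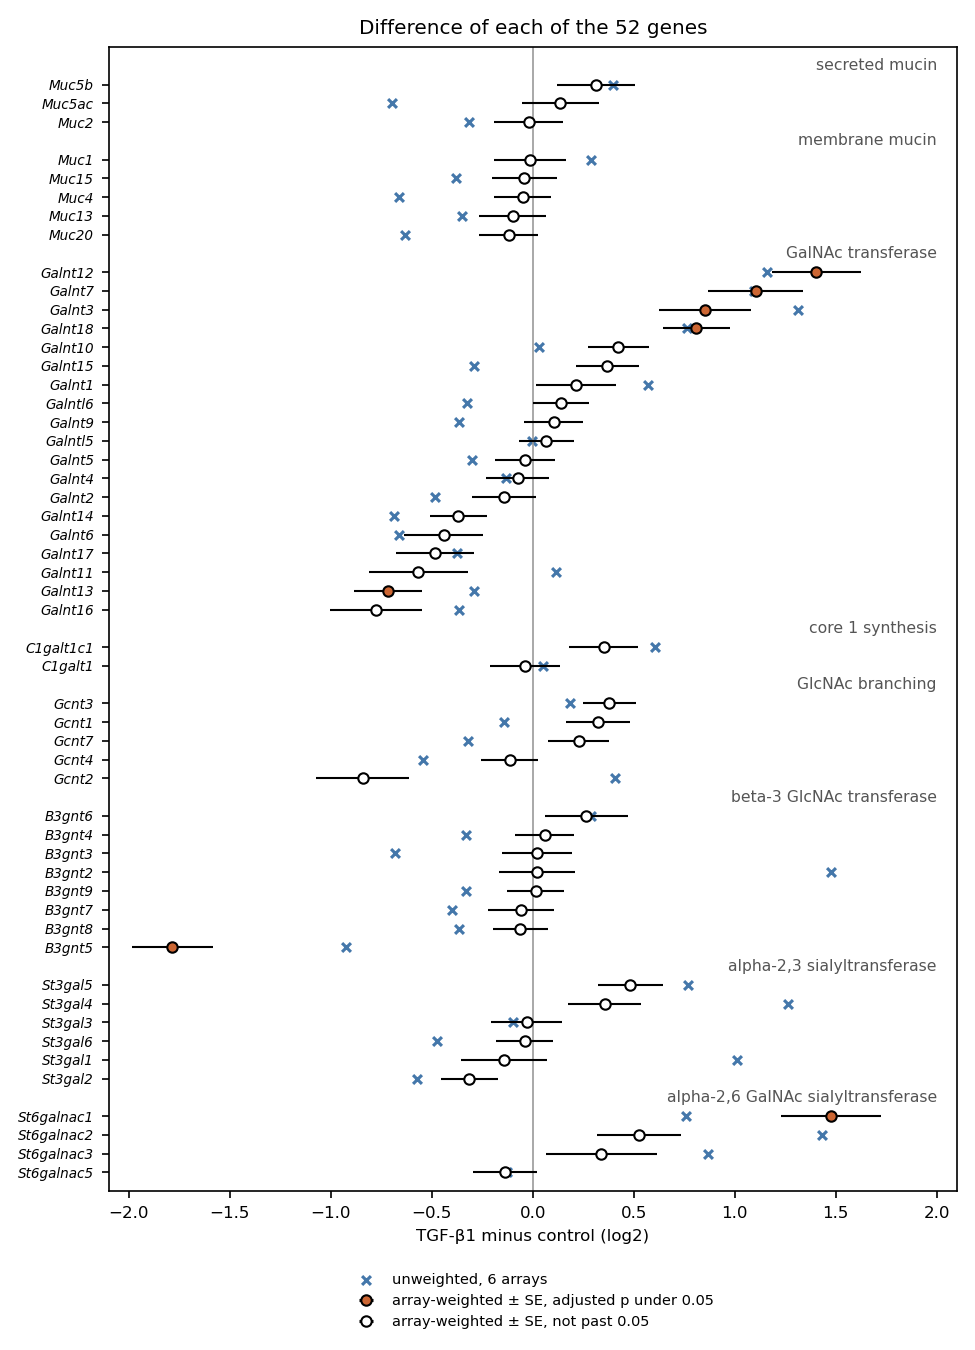
Difference between TGF-β1 and control arrays for each of the 52 genes, grouped by role (horizontal axis, log2). Circles with bars are array-weighted differences ± SE, filled where the adjusted p was under 0.05 (7 genes); crosses are unweighted differences of the same 6 arrays. The mucins lie near 0 in the array-weighted fit, while the unweighted values of 15 of the 52 genes lie on the other side of 0.

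Promoter sequences could be described for some of the called genes, and any link to their change was not tested. RefSeq's table (GRCm38.p6) held a promoter for 35 of the 52 members and for 4 of the 7 called genes, each with 1 start. Galnt7, which rose, and B3gnt5, which fell, are printed as 1 gene of each direction whose window holds sequence mostly outside the annotated gene. They are written 5′ to 3′ on the gene's strand, up to the first base of the annotated gene, and capitals mark matches of CAGAC (the core of the Smad box) and ACGTG (the core bound by several bZIP factors) on either strand. The Galnt7 window is chr8:57653056-57653305 on the minus strand and the B3gnt5 window chr16:19759984-19760191 on the plus strand.
Galnt7: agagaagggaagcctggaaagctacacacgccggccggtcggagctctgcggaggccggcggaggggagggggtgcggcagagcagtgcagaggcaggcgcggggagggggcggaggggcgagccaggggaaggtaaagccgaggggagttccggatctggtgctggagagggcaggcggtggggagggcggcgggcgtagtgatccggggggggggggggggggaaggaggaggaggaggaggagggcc
B3gnt5: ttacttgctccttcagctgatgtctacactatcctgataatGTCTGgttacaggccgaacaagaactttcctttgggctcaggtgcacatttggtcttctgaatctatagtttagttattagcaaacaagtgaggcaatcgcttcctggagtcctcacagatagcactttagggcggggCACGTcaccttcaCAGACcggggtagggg

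The Galnt7 window lies wholly before its annotated gene, while the last 42 of the 250 bases of B3gnt5, most of the Galnt13 window and all of the Galnt3 window lie inside theirs, since the table's start is not the gene's outermost one. Over the 250 bases before that start, Galnt7 had a GC content of 73.6% and 19 CpG, Galnt3 76.8% and 34 CpG, and Galnt13 73.6% and 23 CpG, all above the upper quartile of all promoters of that length (61.2%). B3gnt5, with 51.2% and 7 CpG, lay near the median of 52.4%. B3gnt5 held 2 matches of CAGAC, which 42.2% of all 32851 promoters hold at least once, and 1 of ACGTG, which 16.6% hold. The other 3 windows held neither. None of the 4 held GGCGCC (the GC-rich Smad motif, in 9.59% of promoters), TGANTCA (the AP-1 motif, in 6.75%), TGTTTAC (a forkhead motif, in 3.17%) or TATAAA (in 12.4%). CANNTG, the E-box, matched 4 times in B3gnt5, 3 times in Galnt13, 2 times in Galnt3 and not in Galnt7, and 66.2% of promoters hold it. All motifs were searched on both strands, and a match describes letters, not binding.

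The 8 mucin genes named Muc did not pass in either fit. Prol1, a mucin-type glycoprotein gene outside this set, is given further on, with Smgc. The 3 secreted gel-forming mucins of the set are neighbours in the genome. A further salivary gel-forming mucin gene, at the Smgc locus, was not analysed here. Muc5b was at 5.99, 5.29 and 5.14 in controls 1 to 3. In the TGF-β1 arrays it was at 5.85, 5.59 and 6.17. The groups overlapped, and the array-weighted difference was 0.31 ± 0.19 (SE; limma adjusted p = 0.423). Muc2, the gel-forming mucin of intestinal goblet cells, was at 5.68, 6.07 and 6.83 in the controls and at 6.10, 5.68 and 5.85 with TGF-β1. Muc5ac, known from the airway and stomach surface, was at 6.22, 6.36 and 8.27 in the controls and at 6.69, 6.17 and 5.90 with TGF-β1. For both, control 3 was the highest of the 6 arrays, and the array-weighted differences were -0.02 ± 0.17 and 0.14 ± 0.19.

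None of the membrane mucins passed either. Muc1, the membrane mucin of most glandular epithelia, was at 7.98, 7.65 and 7.49 in the controls and at 7.72, 7.57 and 8.70 with TGF-β1, so that TGF-β1 3 stood alone above the others, and its array-weighted difference was -0.01 ± 0.18. Muc4, a large membrane mucin that can engage ErbB2, was at 7.36, 7.28 and 8.97 in the controls and at 7.28, 7.26 and 7.09 with TGF-β1. The Muc4 groups did not overlap, but TGF-β1 1 and 2 lay just under control 2, and the array-weighted difference was -0.05 ± 0.14 (limma adjusted p = 0.900). Muc13, Muc15 and Muc20 differed by -0.10 ± 0.16, -0.04 ± 0.16 and -0.12 ± 0.15. Of the 8 mucins, 6 were lower with TGF-β1 in the unweighted fit, and those 6 were the ones with control 3 as the highest array. In the other 5 arrays the values of Muc2, Muc5ac, Muc5b, Muc13 and Muc15 lay between 4.59 and 6.69. The table gives no measure of background, so it cannot be said whether these transcripts were present.

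**Figure D2:**
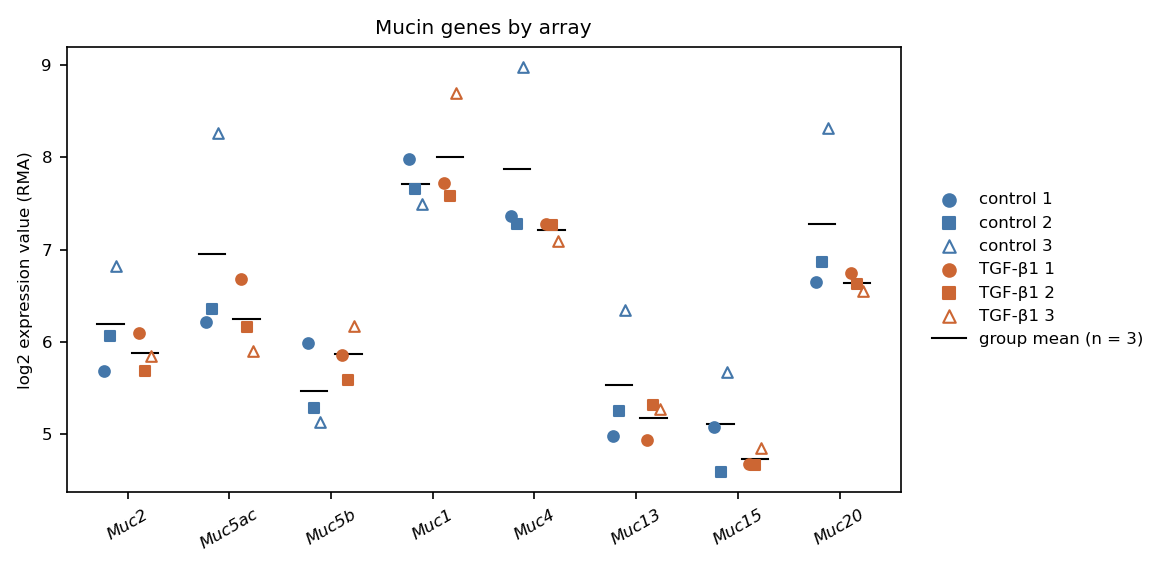
Log2 expression values of the 8 mucin genes in each array (vertical axis); blue marks are controls, orange marks TGF-β1 arrays, open triangles the third array of each group and lines the group means (n = 3). Control 3 is the highest array for Muc2, Muc5ac, Muc4, Muc13, Muc15 and Muc20, and none of these 8 genes passed in either fit.

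Of the 19 Galnt and Galntl genes, whose enzymes start the chain, 4 rose, 1 fell and 14 did not pass in the array-weighted fit, where 3.45% of all genes rose and 3.44% fell. None of the 19 passed in the 4-array limma fit, where the smallest adjusted p was 0.0565. Galnt12, a GalNAc transferase, was at 5.34, 5.11 and 6.18 in controls 1 to 3 and at 6.81, 6.04 and 7.26 with TGF-β1. Controls 1 and 2 were below every TGF-β1 array, and control 3 was above TGF-β1 2 only. Galnt12 rose by 1.40 ± 0.22 (SE), a 2.65-fold difference (limma, array-weighted, adjusted p = 0.0036), and differed by 1.20 ± 0.26 in the 4-array fit (adjusted p = 0.0608). Without control 1 or control 2 the array-weighted difference was 0.93 or 0.82.

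Galnt7 encodes an enzyme that acts mainly on peptides already carrying GalNAc. It was at 6.99, 6.64 and 6.04 in the controls and at 8.17, 7.27 and 7.53 with TGF-β1, and the groups did not overlap. It rose by 1.10 ± 0.24, or 2.15-fold (limma, array-weighted, adjusted p = 0.0165), with an unweighted difference of 1.10 ± 0.40 (adjusted p = 0.776). Its adjusted p was 0.174 in the 4-array fit, and its array-weighted difference was 0.42 without TGF-β1 1.

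Galnt18, of a subfamily with little transferase activity of its own in test-tube assays, was at 6.25, 6.60 and 6.79 in the controls and at 7.19, 7.58 and 7.17 with TGF-β1. The groups did not overlap, and TGF-β1 1 and 3 lay close together. It rose by 0.81 ± 0.17, or 1.75-fold (limma, array-weighted, adjusted p = 0.0134), with an adjusted p of 0.0565 in the 4-array fit. Galnt3, an enzyme of epithelia that also glycosylates the hormone FGF23, was at 8.17, 7.22 and 5.33 in the controls and at 8.31, 8.39 and 7.97 with TGF-β1. Control 1 lay above TGF-β1 3, so the groups overlapped. Galnt3 rose by 0.85 ± 0.23 (limma, array-weighted, adjusted p = 0.0460), but its difference was 0.65 ± 0.29 in the 4-array fit (adjusted p = 0.318). Without TGF-β1 1, 2 or 3 the array-weighted difference was 0.055, 0.022 or 0.23, and without control 1 or 2 it was 2.04 or 1.57.

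Galnt13, an enzyme best known from neurons, was at 6.77, 6.95 and 5.88 in the controls and at 6.01, 6.48 and 6.22 with TGF-β1. The TGF-β1 arrays lay below controls 1 and 2 and above control 3. It fell by 0.72 ± 0.17 on the log2 scale (limma, array-weighted, adjusted p = 0.0254), and its adjusted p was 0.164 in the 4-array fit. Without control 1, control 2 or TGF-β1 1 the difference was -0.23, -0.14 or -0.40.

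The remaining 14 starting enzymes did not pass. Galnt16 had the largest of their array-weighted differences, -0.78 ± 0.23 (limma adjusted p = 0.0662), followed by Galnt11, which acts on Notch among other proteins, at -0.57 ± 0.24 (adjusted p = 0.215). Galnt10, another enzyme that prefers glycosylated peptides, was at 9.55, 9.19 and 10.04 in the controls and at 9.76, 9.66 and 9.44 with TGF-β1, a difference of 0.42 ± 0.15 (adjusted p = 0.133). Galnt1 and Galnt2, the broadly expressed enzymes of the family, differed by 0.21 ± 0.20 and -0.14 ± 0.16. Galnt2 was at 8.10, 7.62 and 8.32 in the controls and at 7.61, 7.65 and 7.32 with TGF-β1. Galnt14 was at 6.24, 6.10 and 7.15 in the controls and at 5.71, 5.87 and 5.85 with TGF-β1, without overlap, and differed by -0.37 ± 0.14 (adjusted p = 0.156).

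**Figure D3:**
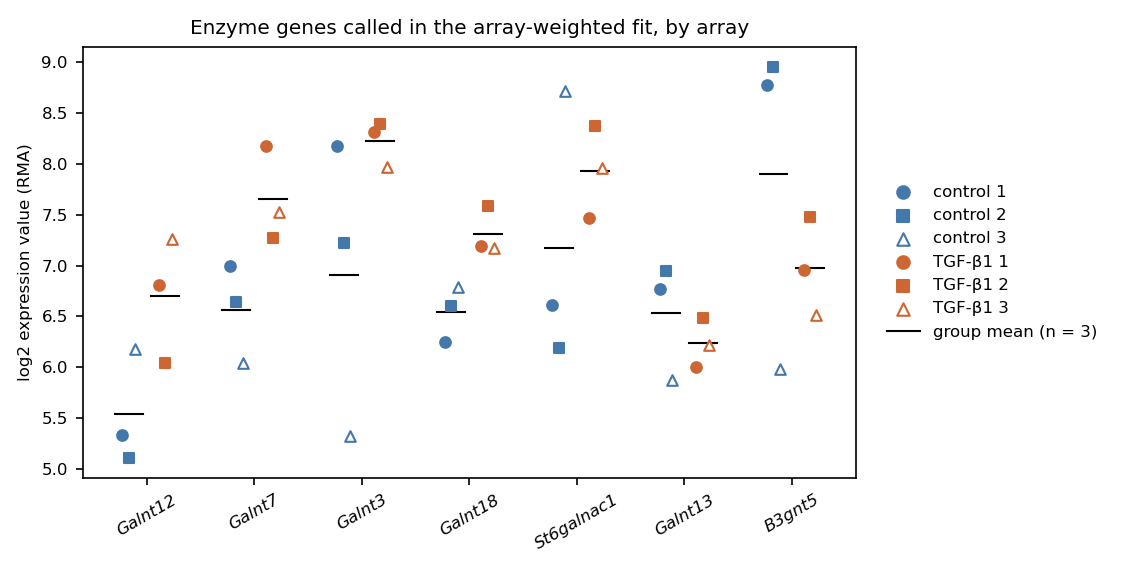
Log2 expression values in each array (vertical axis) of the 7 enzyme genes that passed in the array-weighted fit; blue marks are controls, orange marks TGF-β1 arrays, open triangles the third array of each group and lines the group means (n = 3). Control 3 lies away from controls 1 and 2 for St6galnac1 (8.71 against 6.61 and 6.19) and for B3gnt5 (5.99 against 8.77 and 8.95).

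The next steps of the chain did not pass. C1galt1, the core 1 synthase, was at 5.72, 5.59 and 6.21 in the controls and at 5.47, 5.64 and 6.55 with TGF-β1, an array-weighted difference of -0.04 ± 0.17 (limma adjusted p = 0.941). C1galt1c1, its chaperone Cosmc, was at 7.27, 7.36 and 7.51 in the controls and at 7.64, 7.60 and 8.71 with TGF-β1. These groups did not overlap, with TGF-β1 3 far above the rest, and the difference was 0.35 ± 0.17 (adjusted p = 0.281). Of the 5 branching genes none passed. Gcnt1, which makes core 2, was at 6.01, 5.63 and 6.88 in the controls and at 6.00, 6.21 and 5.88 with TGF-β1 (0.32 ± 0.16), and Gcnt3, the branching enzyme of mucus-producing tissues, at 4.54, 4.58 and 5.005 and at 4.96, 4.96 and 4.76 (0.38 ± 0.13, adjusted p = 0.124). Gcnt2, which makes I branches on lactosamine chains, differed by -0.84 ± 0.23 (adjusted p = 0.0515), with 9.39 and 9.19 in controls 1 and 2, 8.09 to 8.85 with TGF-β1 and 5.94 in control 3.

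B3gnt5 was the member with the smallest p in the array-weighted fit. It encodes the synthase that starts lacto-series chains on glycolipids rather than on mucins. It was at 8.77, 8.95 and 5.99 in controls 1 to 3 and at 6.95, 7.47 and 6.51 with TGF-β1. The 3 TGF-β1 arrays lay well below controls 1 and 2, and all lay above control 3. B3gnt5 fell by 1.79 ± 0.20 on the log2 scale, a 3.45-fold difference (limma, array-weighted, adjusted p = 6.03e-04), and differed by -1.65 ± 0.20 in the 4-array fit (adjusted p = 0.0182). The unweighted difference of the 6 arrays was -0.92 ± 0.80, and the array-weighted one was -0.37 without control 1 and -0.27 without control 2. The other 7 genes of the family did not pass, with array-weighted differences between -0.06 and 0.26. They include B3gnt6, the core 3 synthase (0.26 ± 0.21), B3gnt3, which extends core 1 (0.02 ± 0.17), and B3gnt2, the main maker of polylactosamine (0.02 ± 0.19). B3gnt2 was at 4.58 in control 3 and between 8.86 and 9.14 in the other 5 arrays, which gave an unweighted difference of 1.48 ± 1.14.

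Of the 4 sialyltransferases that act on the GalNAc side of the chain, 1 rose. St6galnac1 caps the bare GalNAc with sialic acid and so makes sialyl-Tn, a chain that is not extended further. It was at 6.61, 6.19 and 8.71 in the controls and at 7.47, 8.37 and 7.96 with TGF-β1. Controls 1 and 2 lay below all TGF-β1 arrays and control 3 lay above all of them. St6galnac1 rose by 1.48 ± 0.25, or 2.78-fold (limma, array-weighted, adjusted p = 0.0048), and differed by 1.51 ± 0.30 in the 4-array fit (adjusted p = 0.0521) and by 0.76 ± 0.68 unweighted. Without control 1 or control 2 the array-weighted difference was 0.35 or 0.14. St6galnac2, which acts on chains already carrying galactose, was at 7.57, 7.86 and 6.18 in the controls and at 8.05, 8.58 and 9.26 with TGF-β1, without overlap. Its array-weighted difference of 0.52 ± 0.21 did not pass (adjusted p = 0.176), and its unweighted one was 1.43 ± 0.55 (adjusted p = 0.776). St6galnac3 and St6galnac5, which also act on glycolipids, differed by 0.34 ± 0.28 and -0.14 ± 0.16.

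None of the 6 St3gal genes passed. St3gal1, which caps the galactose of core 1, was at 8.92, 9.64 and 6.97 in the controls and at 9.24, 9.27 and 10.06 with TGF-β1, a difference of -0.14 ± 0.21. St3gal2, which acts on similar chains, was at 6.49, 6.75 and 7.55 in the controls and at 6.41, 6.31 and 6.34 with TGF-β1 (-0.31 ± 0.14, limma adjusted p = 0.242). St3gal5, the synthase of the ganglioside GM3, had the smallest adjusted p of the 6, 0.101, at 0.48 ± 0.16.

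Over all 52 members, groups of 3 and 3 did not overlap for 9: 5 genes were higher with TGF-β1 (9.62%, background 5.8%) and 4 lower (7.69%, background 5.78%). Of these 9, Galnt7 and Galnt18 were among the 7 called genes. Set against controls 1 and 2 alone, the TGF-β1 arrays lay above for 12 of the 52 members (background 2499 of 19505 genes, 12.8%). They lay below for 8 of the 52 (background 2407 of 19505 genes, 12.3%). Control 3 was the highest array for 28 members and the lowest for 14, together 80.8% of them, and it was at one end for 84.4% of all genes. Of the 23 members whose mean in controls 1 and 2 lay above the median of control 3 (6.80), 16 were lower in control 3 than that mean, and of the 29 below it 26 were higher. Over all genes the counts were 6690 of 9697 and 8831 of 9808. The median absolute difference between control 3 and the mean of controls 1 and 2 was 1.01 over the members (1.19 over all genes), and between controls 1 and 2 it was 0.25 (0.17 over all genes).

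**Figure D4:**
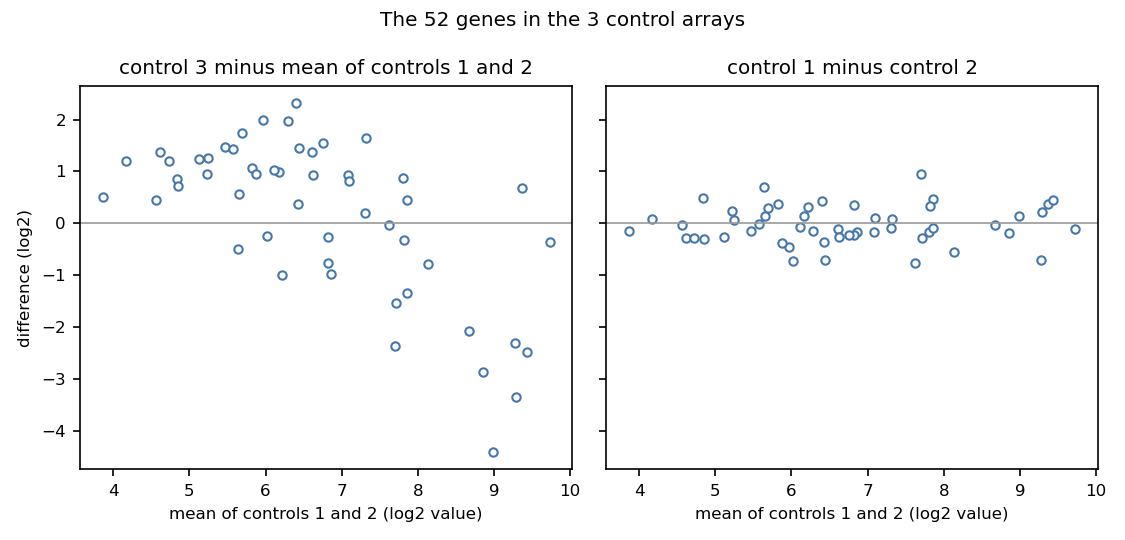
The 52 genes in the control arrays, with the mean of controls 1 and 2 on the horizontal axis (log2 value). The vertical axis gives control 3 minus that mean (left) and control 1 minus control 2 (right), each point being 1 gene. Dim genes lie above 0 and bright genes below it on the left (16 of 23 bright and 26 of 29 dim ones), while differences on the right stay within 0.95.

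Other genes of the route to O-glycans were taken from lists chosen by function, with earlier results of these data known. In the array-weighted fit 3.45% of all genes rose and 3.44% fell, which stand beside the counts of each list. Lists chosen in this way are no independent test, so the shares only describe them. Of 21 measured genes that make or carry the sugar donors, 5 rose (23.8%), 0 fell and 16 did not pass (median difference 0.38, against 0.0054 over all genes), and 3 of the 5 act in making activated sialic acid. Gne, whose enzyme starts sialic acid synthesis, was at 10.59, 10.07 and 7.33 in the controls and at 11.38, 11.49 and 10.69 with TGF-β1, and rose by 1.18 ± 0.20 (limma adjusted p = 0.0048; 0.0406 in the 4-array fit). Nans, the synthase of sialic acid phosphate, was at 7.86, 7.99 and 7.30 and at 8.91, 8.57 and 9.35, and rose by 0.87 ± 0.16 (limma adjusted p = 0.0079; 0.0575 in the 4-array fit). Cmas, which activates sialic acid to its CMP form, was at 8.76, 8.53 and 7.09 and at 9.26, 9.48 and 9.42, and rose by 0.76 ± 0.15 (limma adjusted p = 0.0120; 0.0718 in the 4-array fit). All 3 genes had non-overlapping groups, with the TGF-β1 arrays above each control. The other 2 steps of that route did not pass: Nanp, the phosphatase between Nans and Cmas, differed by 0.58 ± 0.17 (adjusted p = 0.0636), and Slc35a1, the Golgi carrier of CMP-sialic acid, by 0.33 ± 0.16 (adjusted p = 0.280). In the 4-array fit 1 of the 21, Gne, was called. Gfus, which makes GDP-fucose, rose by 0.73 ± 0.16, and Slc35a3, a Golgi carrier of UDP-GlcNAc, by 0.82 ± 0.18.

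Of 27 measured genes of further extension, fucosylation and sulfation, 1 rose, 2 fell and 24 did not pass (median difference 0.08). B4galt5, known above all as a lactosylceramide synthase and so acting upstream of B3gnt5 on glycolipids, was at 7.85, 8.50 and 7.57 in the controls and at 6.48, 6.56 and 8.02 with TGF-β1. It fell by 1.73 ± 0.23 (limma, array-weighted, adjusted p = 0.0017; 0.0226 in the 4-array fit), although TGF-β1 3 lay above control 1. Chst9, a sulfotransferase of GalNAc, rose by 1.30 ± 0.26, and Chst2, one of GlcNAc, fell by 0.87 ± 0.19, but neither passed in the 4-array limma fit (adjusted p = 0.0639 and 0.144). Of 23 genes of other kinds of O-glycosylation 2 rose and 1 fell: Colgalt2, which glycosylates collagen, rose by 1.30 ± 0.20, Lfng, which extends O-fucose on Notch, by 1.17 ± 0.20, and Gxylt2, which extends O-glucose on Notch, fell by 0.82 ± 0.15. Of these, Colgalt2 passed in the 4-array limma fit as well (adjusted p = 0.0143), and Lfng and Gxylt2 did not (0.0575 and 0.0597). Of 8 sialidases and glycosidases 1 fell, Hexa, a lysosomal hexosaminidase, by 1.06 ± 0.21 (adjusted p = 0.0513 in the 4-array limma fit), and 7 did not pass.

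Of 20 measured mucin-like, sialomucin and related proteins, 3 rose, 2 fell and 15 did not pass (median difference 0.26). Prol1, a mucin-type glycoprotein of the mouse submandibular gland, was at 4.76, 4.50 and 6.41 in the controls and at 6.01, 9.27 and 10.04 with TGF-β1. TGF-β1 2 and 3 were far above the rest and TGF-β1 1 lay below control 3. Prol1 rose by 2.74 ± 0.73 (limma, array-weighted, adjusted p = 0.0462; 0.138 in the 4-array fit). In the 4-array fit 2 genes of this list, Oit1 and Smgc, were called higher and 1, Mcam, lower. Smgc, whose gene shares its locus with a salivary gel-forming mucin gene not analysed here, rose by 4.86 ± 0.46. Oit1, a small secreted protein that is not a mucin, rose by 2.65 ± 0.22. Mcam, an adhesion molecule of vessel walls, and Cd34, a sialomucin of endothelial and mesenchymal cells, fell by 1.53 ± 0.18 and 1.00 ± 0.20 (adjusted p = 0.114 for Cd34 in the 4-array limma fit).

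**Figure D5:**
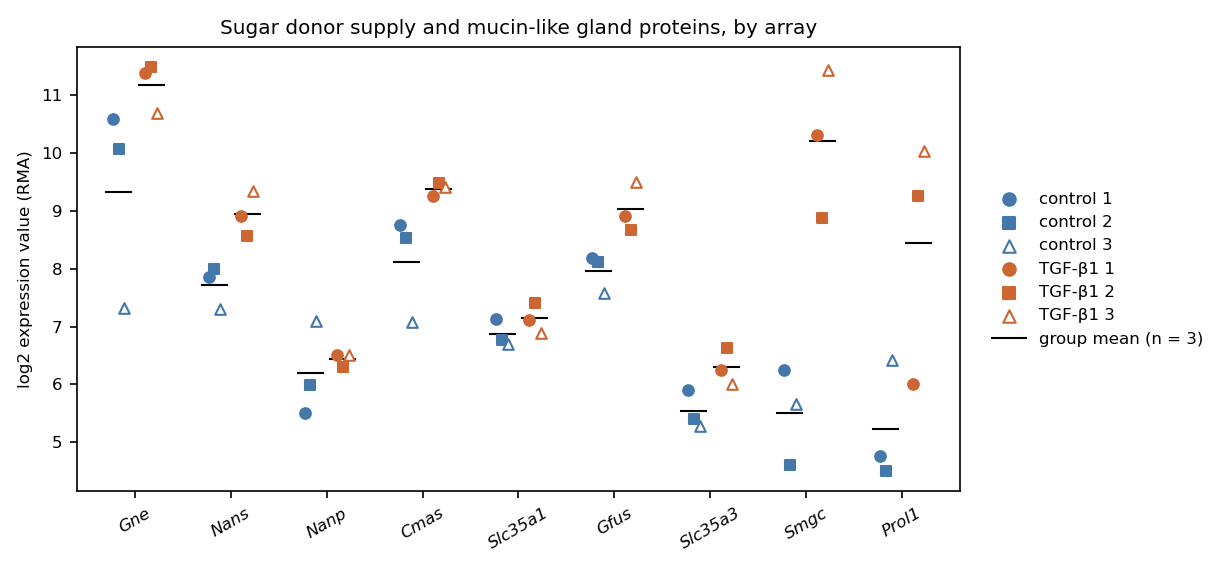
Log2 expression values in each array (vertical axis) of 7 genes that make or carry sugar donors and of the mucin-like gland proteins Smgc and Prol1; blue marks are controls, orange marks TGF-β1 arrays, open triangles the third array of each group and lines the group means (n = 3). Gne, Nans, Cmas, Gfus, Slc35a3 and Smgc have all TGF-β1 arrays above all controls, while Nanp, Slc35a1 and Prol1 overlap.

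Of 21 measured partners of mucous and secretory cells, 5 rose, 0 fell and 16 did not pass (median difference 0.17): the transcription factors Spdef, Foxa1, Creb3l4 and Bhlha15, and Agr2, a folding enzyme needed for intestinal mucin (1.73 ± 0.44; limma adjusted p = 0.0386, and 0.204 in the 4-array fit). Spdef, which drives goblet and mucous cell differentiation, was at 7.61, 7.69 and 8.24 in the controls and at 9.76, 9.26 and 9.08 with TGF-β1. Of 6 markers of goblet and mucous cells Spdef and Agr2 rose, and Muc2, Muc5b, Tff3 and Fcgbp did not pass. The summed level of these 6 was 8.81 to 9.67 in the controls and 9.83 to 11.19 with TGF-β1. A sum of linear values is led by its brightest genes, and Spdef alone was at 9.76, 9.26 and 9.08 with TGF-β1. The sum therefore does not show a rise of the 6 markers as a set, of which 4 did not pass.

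Some markers of cell types moved beside these genes and others did not. Of 10 markers of gland epithelium 4 rose, namely Elf5, Sox10, Aqp5 and Epcam, 0 fell and 6 did not pass. Over all genes 3.45% rose. The array-weighted differences of the 10 ran from -0.59 to 2.24 (median 0.60). In the 4-array fit Elf5, Sox10 and Aqp5 were called higher, where 2.59% of all genes were called in either direction. Of 7 measured markers of gland mesenchyme none passed (median array-weighted difference -0.44). Their summed level was 13.56, 13.84 and 10.92 in controls 1 to 3 and 13.28, 13.06 and 13.72 in TGF-β1 1 to 3. The 3 measured markers of neurons and glia rose (summed level 8.17 to 8.51 in the controls, 9.13 to 9.18 with TGF-β1), of which 1, Ret, was called in the 4-array fit. Of 5 endothelial markers 1, Kdr, fell (summed level 8.38 to 8.65 in the controls, 7.83 to 8.87 with TGF-β1). Of the measured markers, 0 of 3 for leukocytes and 0 of 4 for skeletal muscle passed, 1 of 2 for red cells fell and 1 of 4 for cartilage, Sox9, rose. Neither of those last genes passed in the 4-array fit. The part of cell composition in the changes of Galnt12, Galnt7, Galnt3, Galnt18, St6galnac1, B3gnt5 and Galnt13 was not tested.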

How the data were processed

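Total RNA (6 µg) of 6 samples of cultured glands, 3 untreated and 3 with TGF-β1, was biotin-labelled and hybridised to Affymetrix arrays, per the labels' protocols. The authors made the deposited log2 value of each probe set with RMA, according to the submitters' processing notes. The sources used here name neither a version of it nor a genome build. The values were used as deposited, without further scaling or filter, although their spread was narrower in control 3 (interquartile range 2.05) than elsewhere (3.17 to 3.26). Arrays carry no read depth, so their number limits the precision.

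Of 22206 probe sets, 19572 had 1 gene symbol in the platform annotation, 0 had several and 2634 were unnamed here; where a gene had several probe sets, the one with the highest mean stood for the gene, leaving 19505 genes. All 52 members were found in the RefSeq gene table by Entrez identifier. Groups came from sample titles. The comparison used limma 3.58.1 (R 4.3.3), two-sided, with lmFit, eBayes and Benjamini-Hochberg adjustment over all genes, unweighted and with arrayWeights; estimated weights are treated as known, which can make those p-values too small. The fits were tried on simulated data in which control 3 and TGF-β1 3 had only more random scatter. The narrower spread of control 3 was not simulated, so that trial does not cover it. The members and the lists were chosen with earlier results of these data known. Named genes are all mucins, all members that passed with array weights, the 3 of smallest unweighted p per direction, C1galt1, C1galt1c1, Gcnt1, Gcnt3, the 3 brightest Galnt genes and up to 4 passing genes per list; other members and list genes (Gfus and others beyond these) were named after their values were seen. The comparison was repeated with median centring, quantile normalization, dim genes left out, averaged probe sets, another prior, other weights, the replicate number as a block and left-out arrays.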

Additional observations from a re-analysis of the deposited data

How the results depend on the processing

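In the unweighted limma fit 0 members passed under every alternative run except one: without control 3 and TGF-β1 3 there was 1 (B3gnt5). Leaving out 1 array at a time gave 0 each time, with 0 to 8 at an unadjusted p under 0.05. The 8 were in the fit without control 3, where 1487 of 19505 genes (7.62%) lay under that level. For the other left-out arrays that share was not counted. In the array-weighted fit, which called 7 members and 1342 of 19505 genes, 4 passed after quantile normalization (486 genes), 2 after median centring (283 genes), 4 with weights estimated gene by gene (874 genes), 3 at an adjusted p under 0.01 (538 genes), 1 without control 3 and TGF-β1 3 (508 genes; with no weights also 1, and 505 genes) and 0 with no weights and without control 3 alone (8 at an unadjusted p under 0.05); the last 2 fits with no weights were chosen after seeing the data. Leaving out 1 array at a time gave 0 to 4. Left-out dim genes (the lowest 33.3%) raised the count to 18 of 39 members, the 7 among them; control 2 had a weight of 17.1 there, and 4349 of 13003 genes passed. With the replicate number as a block 12 members passed (8 higher, 4 lower, the 7 among them) and 2502 genes in all, and 0 without weights. Deviations from the group mean correlated at -0.066, -0.0078 and -0.050 between same-numbered arrays, and at -0.161 to 0.116 between the other pairs. Control 3 lies so far from controls 1 and 2 that it sets much of their deviations. These correlations therefore cannot show whether same-numbered arrays were paired. Averaged probe sets and a trended prior gave 8 and 9 (1421 and 1454 genes). No called gene changed sign in any alternative run.

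Uncalled genes crossed 0 in some of the runs whose signs were recorded. With no weights Muc1 differed by 0.29, Muc5ac by -0.70, C1galt1 by 0.049, Gcnt1 by -0.14 and Galnt11 by 0.11. Muc1 was at 0.047 without dim genes. After median centring Muc13 was at 0.0025, Muc2 at 0.14 and Muc5b at -0.046, and after quantile normalization Muc2 at 0.059. The block gave 0.025 for Muc13 and -0.017 for Muc5ac. Without control 3 and TGF-β1 3 Muc13 was at 0.012 and Muc2 at 0.016, and with gene-by-gene weights Muc2 at 0.0092. With 1 array left out, the ranges were -0.33 to 0.23 for Muc1, -0.71 to 0.29 for Muc13, -0.50 to 0.27 for Muc2, -0.89 to 0.012 for Muc20, -0.85 to 0.19 for Muc5ac, -0.25 to 0.57 for Muc5b, -0.38 to 0.37 for C1galt1, -0.38 to 0.24 for Gcnt1, -0.086 to 0.34 for Galnt10 and -1.19 to 0.67 for Galnt11. The cause of these shifts was not tested.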
